A study of Mus musculus with 24 samples.

Results

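The RNA ratios of 8 genes of the adipocyte and its lipid droplet were described in 6 organs of Nur77-/- mice, each organ set against the same organ of wild-type mice. The genes were Plin1 and Cidea, whose proteins sit on the lipid droplet, Lipe, which encodes hormone-sensitive lipase, Ucp1 of the heat-producing brown adipocyte, the fatty acid carrier Fabp4, the secreted factors Adipoq and Retn, and Lpin1, an enzyme of glyceride synthesis. They were selected on measured values, because the list was drawn up with earlier ratios of these same arrays known. Their own ratios are therefore given as a description and without p-values. A probe was a member when its platform gene symbol was 1 of these 8 names. This found all 8 genes, of 9834 genes with a symbol on the array, through 11 of 13891 probes. Plin1, Cidea, Ucp1, Fabp4, Adipoq and Retn had 1 probe each, Lipe had 2 and Lpin1 had 3, and the probes of a gene were averaged on each array.

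White adipocytes store triglyceride in a lipid droplet whose coat proteins control how lipases reach the fat, and they release hormones into the blood. Brown adipocytes hold many small droplets and burn the fatty acids in mitochondria, where an uncoupling protein turns the proton gradient into heat. Nur77, the product of Nr4a1, is a nuclear receptor of the NR4A family and an immediate early gene, and in brown fat it is known to be induced by cold and by adrenergic signals.

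Each organ had 4 hybridisations of a Nur77-/- pool against a wild-type (Nur77+/+) pool on 2-colour arrays, in brown adipose tissue, lung, heart, skeletal muscle, spleen and testis, 24 arrays in all. The Nur77-/- pool carried Cy5 on replicates 1 and 2 of each organ and Cy3 on replicates 3 and 4. Per the design text, 7 mutant mice were pooled and set against a pool of 7 wild-type mice, while the labelling protocol speaks of 6 control animals. The labels give no strain, age or allele construction. The 4 arrays of an organ repeat the comparison of the same pools, so their spread is that between hybridisations and says nothing of the spread between animals. The wild-type channel of heart replicate 2 is labelled skeletal muscle.

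The arrays held between 13396 and 19455 values, and their median log2 ratios ranged from -0.78 to 0.67. The values were read as log2 ratios with Nur77-/- on top. No source states that direction, though the ratios of the targeted gene make it likely, and the scaling and centring behind the values are unknown. Nr4a1, the targeted gene, was below 0 on 21 of the 22 arrays that measured it, and in the main fit it was called in skeletal muscle alone. With array weights it was also called in brown adipose tissue (adjusted p = 0.00242 by limma). Its fitted ratio was -0.24 ± 0.31 in testis, -0.38 ± 0.26 in lung, -0.67 ± 0.26 in heart, -0.75 ± 0.26 in spleen, -1.14 ± 0.26 in brown adipose tissue and -1.73 ± 0.31 in skeletal muscle (SE). A table of ratios holds no level, so the organs could not be checked against their defining markers, and a gene that is hardly expressed in an organ cannot be told from an abundant one. In bulk RNA, fewer cells of a type and less RNA per cell cannot be told apart either.

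The regions just upstream of the members' start sites were searched for the recognition sequences of NR4A receptors and of the adipocyte receptor PPARG. In the RefSeq promoter table (GRCm38.p6; 250 bases before to 50 after each start), 6 of the 8 genes had an entry, Lipe with 2 starts, which gives 7 promoters. Both strands were searched for AAAGGTCA, to which NR4A receptors bind as single molecules, for the core AGGTCA that this longer motif contains, and for the direct repeat of the core with 1 base between, the form bound by PPARG with its partner. AAAGGTCA was in 0 of the 7 promoters and in 1.51% of all 32851 promoters of the table. The direct repeat was in 0 of the 7 and in 0.0396% of all. The core was in 2 of the 7, Ucp1 and Lpin1, and in 16.3% of all promoters. The pair is printed because these are the members whose start regions hold the core. The Ucp1 promoter lies at chr8:83290098-83290397 on the plus strand, and the Lpin1 promoter at chr12:16610917-16611216 on the minus strand, inside the annotated Lpin1 gene, whose farther bounds are 16535669 and 16653903. Each is written 5′ to 3′ in the direction of transcription, with the core in capitals.
Ucp1: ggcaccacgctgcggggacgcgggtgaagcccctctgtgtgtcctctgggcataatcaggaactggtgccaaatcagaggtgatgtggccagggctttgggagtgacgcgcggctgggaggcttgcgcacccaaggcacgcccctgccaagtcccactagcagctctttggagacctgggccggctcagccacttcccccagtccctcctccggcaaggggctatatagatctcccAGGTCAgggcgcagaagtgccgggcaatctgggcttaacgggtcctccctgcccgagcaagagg
Lpin1: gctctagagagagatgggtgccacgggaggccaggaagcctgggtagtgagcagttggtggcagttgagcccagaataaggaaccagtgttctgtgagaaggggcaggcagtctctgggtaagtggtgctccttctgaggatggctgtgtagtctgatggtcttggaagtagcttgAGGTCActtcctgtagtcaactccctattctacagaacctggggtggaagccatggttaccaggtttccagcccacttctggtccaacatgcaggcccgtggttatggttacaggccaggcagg
The capitals begin 14 bases before the start in Ucp1 and 74 bases before it in Lpin1. A match of letters is a description of the window and does not show a bound site.

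In brown adipose tissue, the organ in which these genes are characteristic, all 8 members were measured, with fitted ratios close to 0. Their fitted ratios ran from -0.42 (Lpin1) to 0.25 (Ucp1), with a median of -0.03, against -0.07 for all 15223 rows tested there, a row being a gene with a symbol or a probe without one. 5 members were below 0 and 3 above it in the fit. Single arrays spread wider, from -0.67 to 0.85 for Plin1 and from -0.97 to 0.53 for Lipe. By limma with Benjamini-Hochberg adjustment at 0.05, 0 of the 8 members were called and 0% of all rows, with 102 rows at an unadjusted p under 0.05 and 6 rows called once arrays were weighted by quality. In simulated data with this organ's missing values (15223 rows), 94.2% of genes changed by 4 log2 units were found, but 52.3% of those changed by 2 units and 3.03% of those changed by 1 unit. The simulation drew each row with its spread shared over all organs and not with that of brown adipose tissue, and it changed rows in every organ. These shares therefore need not hold for the real arrays of this organ. The array SD of the 7 members measured on all 4 arrays had a median of 0.24, against 0.45 for all rows with 4 values.

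**Figure D1:**
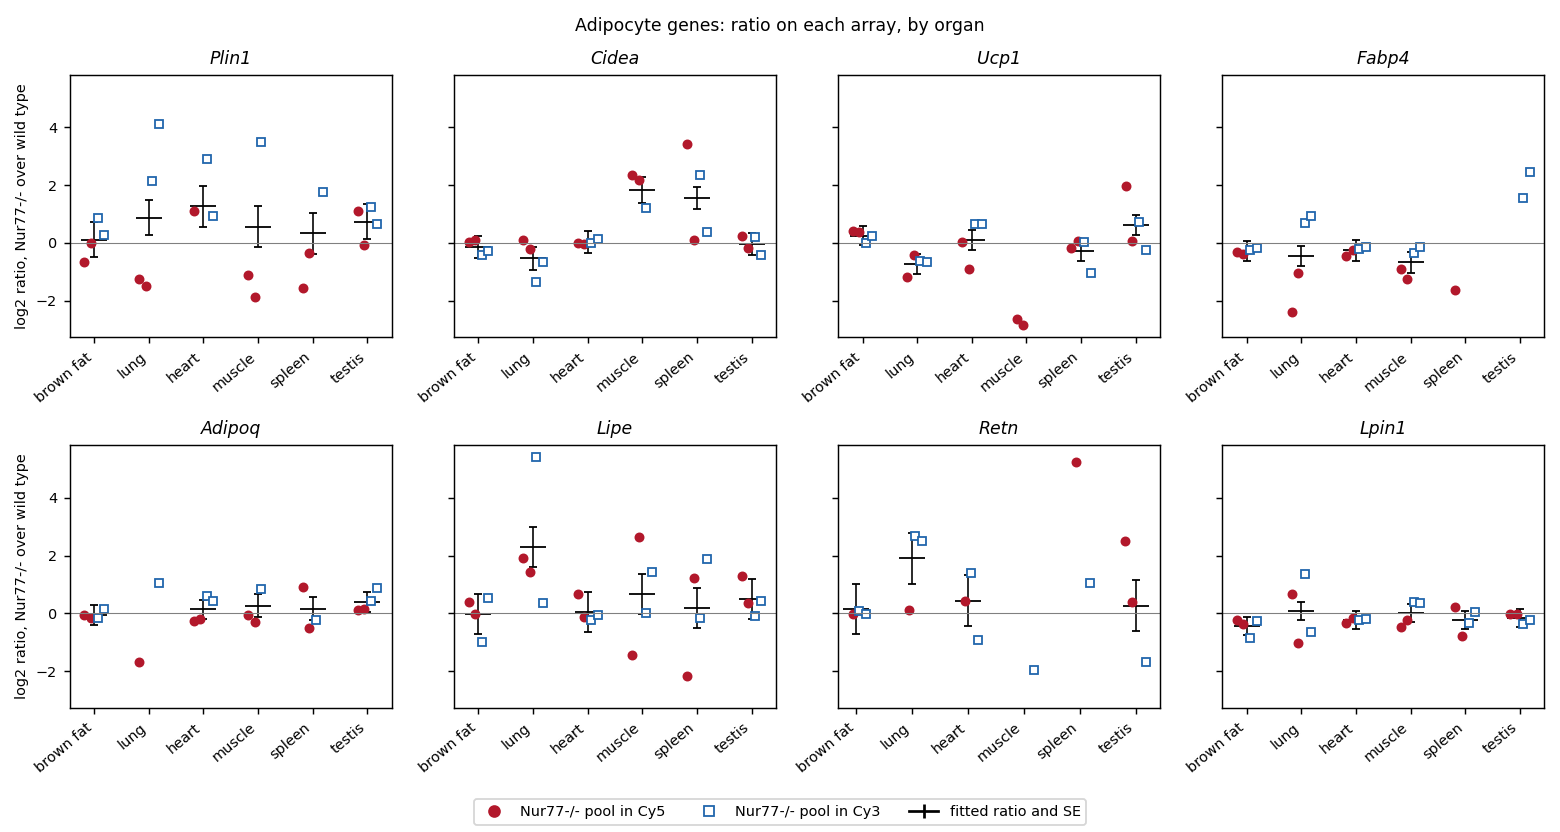
Log2 ratio of Nur77-/- over wild type (vertical axis) of each adipocyte gene in 6 organs (horizontal axis). Filled red circles are arrays with the Nur77-/- pool in Cy5, open blue squares arrays with it in Cy3, and black bars the fitted ratio with its SE where the gene was tested. In brown fat the points of most genes lie near 0, Plin1 splits by dye in lung and skeletal muscle, and Cidea lies above 0 in skeletal muscle and spleen.

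Plin1, perilipin 1, coats the droplet of adipocytes and gates its access to lipases. Its log2 ratios in brown adipose tissue were -0.67 and -0.01 with the Nur77-/- pool in Cy5 and 0.85 and 0.28 with it in Cy3, and the fitted ratio was 0.11 ± 0.61 (SE, n = 4). In lung they were -1.25 and -1.47 with the Nur77-/- pool in Cy5 and 2.14 and 4.11 with it in Cy3, fitted at 0.88 ± 0.61. The sign turned with the dye in both organs. In skeletal muscle the ratios were -1.10 and -1.86 in Cy5 and 3.48 in Cy3, with 1 array lacking a value, and in spleen they were -1.55 and -0.35 in Cy5 and 1.75 in Cy3. The fitted ratios of 0.56 ± 0.71 in skeletal muscle and 0.33 ± 0.71 in spleen are thus averages of opposite signs. Heart (1.10 in Cy5, 2.89 and 0.95 in Cy3, fitted 1.27 ± 0.71) had 1 sign in both orientations. In testis the ratios were 1.11 and -0.06 in Cy5 and 1.23 and 0.64 in Cy3, fitted at 0.73 ± 0.61. Plin1 was lower with the Nur77-/- pool in Cy5 than with it in Cy3 in 6 of 6 organs, and its dye term over all arrays was -2.29 ± 0.54, below that of all but 2.70% of 16103 rows, whose median was -0.17.

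Cidea encodes a droplet protein of brown fat that passes lipid between touching droplets. Its brown adipose tissue ratios were 0.02 and 0.09 with the Nur77-/- pool in Cy5 and -0.42 and -0.28 with it in Cy3, fitted at -0.15 ± 0.39 (SE, n = 4). In skeletal muscle the ratios were 2.36 and 2.18 in Cy5 and 1.21 in Cy3, with replicate 4 lacking a value, fitted at 1.84 ± 0.45, a 3.58-fold higher level in Nur77-/- than in wild-type muscle. The medians of the skeletal muscle arrays were far apart, at -0.43 and -0.78 in Cy5 and -0.01 and 0.67 in Cy3, and with each array centred on its median the Cidea ratio was 2.25. In spleen the ratios were 3.43 and 0.09 in Cy5 and 2.36 and 0.37 in Cy3, fitted at 1.56 ± 0.39, 2.95-fold higher in Nur77-/- than in wild-type spleen. All 7 values of these organs were above 0, but the spleen arrays disagreed within each dye orientation, replicates 1 and 3 being high and replicates 2 and 4 close to 0. The array SD of Cidea was 1.60 in spleen and 0.07 in heart. The fit holds 1 spread per gene for all organs, so the SE of 0.39 is smaller than the spleen arrays alone would give.

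The heart ratios of Cidea lay within 0.15 of 0 on every array (0.02 and -0.02 in Cy5, -0.01 and 0.12 in Cy3). In testis they were 0.23 and -0.16 in Cy5 and 0.22 and -0.41 in Cy3, fitted at -0.03 ± 0.39. In lung they were 0.09 and -0.21 in Cy5 and -1.36 and -0.65 in Cy3, fitted at -0.53 ± 0.39. Ordered by fitted ratio, skeletal muscle was followed by spleen, heart, testis, brown adipose tissue and lung. The neighbours in that order differed by less than their standard errors added together, except spleen and heart, and even there spleen replicate 2 lay inside the range of the heart arrays.

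Cidea was the member called in skeletal muscle, 1 of the 6 members tested there, where 5.59% of all rows were called (669 of 11974 rows, 402 higher and 267 lower). It was likewise the member called in spleen, 1 of 6 tested, where 1.53% of all rows were called (172 of 11217 rows, 67 higher and 105 lower). Since the gene was listed with these ratios known, nothing is read from either count. The call in skeletal muscle was lost when replicate 1, 2 or 4 was left out of every organ, with fitted ratios of 1.69, 1.78 and 1.86, and the gene was not tested without replicate 3. In spleen it was lost without replicate 1 (0.95), 3 (1.20) or 4 (1.90), and with array weights (1.92), and it stayed without replicate 2 (2.19).

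Markers of cell types, including those of muscle itself, moved in the same organs. In spleen, 10 of 14 exocrine pancreas markers fell in Nur77-/- by limma, with a median log2 ratio of -3.74 over the list and a range from -6.68 to 1.89, while 1.53% of all rows were called. In skeletal muscle, where 5.59% of all rows were called, 3 of 19 muscle markers rose (list median 0.18). That count was 1 without replicate 1 and 0 with arrays centred and scaled, and with the probe of most values 1 rose and 1 fell, Mybpc1 standing at 0.42 there, against 2.35 averaged over its probes, and Ryr1 at 0.24, against 1.63. The other marker called, Neb, was fitted at 2.04 ± 0.33 and was above 0 on 4 of 4 arrays. Its adjusted p was 0.000725 by limma, and 0.0279 with array weights, and its call stayed in 15 of 17 alternative fits. Of 5 red blood cell markers (list median -0.57), Slc4a1, the anion exchanger of the red cell membrane, was called with a log2 ratio of 2.02. Its arrays read 0.43 and 0.65 in Cy5 and 4.69 in Cy3, so a single array carried the value, and its adjusted p was 0.0878 with array weights, 0.0869 with arrays centred and scaled, and 0.0599, 0.053 and 0.0717 without replicate 1, 2 or 4. Their part in the Cidea ratios was not tested.

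Lipe encodes hormone-sensitive lipase, which splits diglyceride during lipolysis. Brown adipose tissue had ratios of 0.38 and 0.00 with the Nur77-/- pool in Cy5 and -0.97 and 0.53 with it in Cy3, fitted at -0.02 ± 0.69 (SE, n = 4). In lung they were 1.93 and 1.45 in Cy5 and 5.42 and 0.38 in Cy3, fitted at 2.29 ± 0.69, which is 4.89-fold higher in Nur77-/- than in wild-type lung. All 4 lung values were above 0, but replicate 3 carried most of the mean, and without it the fitted ratio was lower, at 1.29. The 2 Lipe probes gave lung means of 2.04 ± 2.39 (SD, n = 4; probe 5699) and 2.19 ± 1.92 (SD, n = 2; probe 6343). On the lung arrays that both measured they differed, at 0.30 and 3.55 on replicate 1 and 2.06 and 0.83 on replicate 2. The values of replicates 3 and 4 came from probe 5699 alone. The lung ratio exceeded that of 99.7% of rows there, and it was not called. In skeletal muscle the ratios were -1.45 and 2.66 in Cy5 and 0.01 and 1.44 in Cy3, and in spleen -2.18 and 1.24 in Cy5 and -0.17 and 1.87 in Cy3, so both signs occurred within an orientation. The fitted ratios were 0.66 ± 0.69 in skeletal muscle, 0.19 ± 0.69 in spleen, 0.06 ± 0.69 in heart and 0.50 ± 0.69 in testis. In testis probe 5699 averaged 0.04 ± 0.32 and probe 6343 averaged 0.96 ± 1.16 (SD, n = 4 each). On skeletal muscle replicate 1 they read -0.26 and -2.64. Their brown adipose tissue means were close, at -0.05 and -0.10, but on replicate 4 there they read -0.06 and 1.13.

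Ucp1, the uncoupling protein of brown fat, was above 0 on all 4 brown adipose tissue arrays. The ratios were 0.41 and 0.37 with the Nur77-/- pool in Cy5 and 0.01 and 0.23 with it in Cy3, fitted at 0.25 ± 0.34 (SE, n = 4), 1.19-fold higher in Nur77-/- than in wild-type tissue. In lung it was below 0 on all 4 arrays, at -1.17 and -0.42 in Cy5 and -0.64 and -0.67 in Cy3, fitted at -0.72 ± 0.34. Neither was called. In skeletal muscle Ucp1 had values on the arrays with the Nur77-/- pool in Cy5 alone, -2.64 and -2.86, and was not tested. Heart had 0.03 and -0.90 in Cy5 and 0.66 and 0.65 in Cy3 (fitted 0.11 ± 0.34), and testis had 1.96 and 0.06 in Cy5 and 0.71 and -0.23 in Cy3 (fitted 0.62 ± 0.34). In spleen it was fitted at -0.29 ± 0.34, with array values from -1.06 to 0.08. Ucp1 thus had no common sign over the organs.

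Skeletal muscle markers stood at a median of 0.51 in brown adipose tissue, with 17 of 22 above 0 and 0 called, where the median of all rows was -0.07. In lung they stood at -1.08, with 3 of 17 called lower in Nur77-/-, against 0.0809% of all rows, and 4 above 0. The number called lower in lung was 1 with arrays centred, and 1, 1, 0 and 1 without replicate 1, 2, 3 or 4. Macrophage markers in brown adipose tissue had a median of -0.02 (11 genes), endothelial markers of -0.12 (10 genes) and red blood cell markers of -0.18 (5 genes), with 0 called. Their part in the ratios of Ucp1 and of the other members in these organs was not tested.

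Fabp4, the fatty acid binding protein of adipocytes, which macrophages and capillary endothelium also express, was below 0 on all 4 arrays in brown adipose tissue, heart and skeletal muscle. In brown adipose tissue the ratios were -0.31 and -0.37 with the Nur77-/- pool in Cy5 and -0.25 and -0.19 with it in Cy3, an array SD of 0.08, fitted at -0.28 ± 0.36 (SE, n = 4), 1.21-fold lower in Nur77-/- than in wild-type tissue. In heart they were -0.46 and -0.24 in Cy5 and -0.20 and -0.13 in Cy3, fitted at -0.26 ± 0.36. In skeletal muscle they were -0.90 and -1.24 in Cy5 and -0.36 and -0.15 in Cy3, fitted at -0.67 ± 0.36. These 3 organs differed from each other by less than the standard errors added together, and none was called. The SE exceeds the array spread because the fit holds 1 spread per gene for all organs, and the lung values of Fabp4 were far apart: -2.39 and -1.06 in Cy5 against 0.69 and 0.94 in Cy3, fitted at -0.45 ± 0.36. In spleen a single array gave a value (-1.64, Cy5) and in testis the arrays with the Nur77-/- pool in Cy3 alone did (1.56 and 2.45), so Fabp4 was not tested in these organs.

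Of the secreted factors, Adipoq encodes adiponectin, a hormone that raises insulin sensitivity. Its ratios in brown adipose tissue were -0.05 and -0.17 with the Nur77-/- pool in Cy5 and -0.14 and 0.16 with it in Cy3, fitted at -0.05 ± 0.33 (SE, n = 4). In testis it was above 0 on all 4 arrays (0.14 and 0.16 in Cy5, 0.43 and 0.88 in Cy3, fitted 0.40 ± 0.33). In heart the sign followed the dye, with -0.25 and -0.20 in Cy5 and 0.61 and 0.41 in Cy3, and in lung the values measured were -1.70 in Cy5 and 1.07 in Cy3. Fitted ratios were 0.27 ± 0.39 in skeletal muscle and 0.17 ± 0.39 in spleen, from 3 arrays each.

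Retn encodes resistin, which adipocytes secrete in mice and which impairs insulin action there. It was the member with the fewest values, 15 of 24 arrays. In brown adipose tissue they were -0.02 in Cy5 and 0.10 and -0.03 in Cy3, within 0.15 of 0, yet the fitted ratio was 0.16 ± 0.88 because its dye term of 0.83 ± 0.84 shifts a set with a missing Cy5 array. In lung the values were 0.11 in Cy5 and 2.67 and 2.51 in Cy3, fitted at 1.90 ± 0.88 and not called. Heart had 0.44 in Cy5 and 1.40 and -0.93 in Cy3 (fitted 0.44 ± 0.88), and testis 2.52 and 0.38 in Cy5 and -1.68 in Cy3 (fitted 0.27 ± 0.88). Spleen had 5.25 in Cy5 and 1.05 in Cy3, and skeletal muscle -1.94 on 1 array, and neither was tested.

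Lpin1 encodes lipin 1, the phosphatidate phosphatase that makes the diglyceride for triglyceride synthesis and that also acts with nuclear receptors in the control of fatty acid oxidation. Averaged over its probes it was below 0 on all 4 arrays in brown adipose tissue, heart and testis. In brown adipose tissue the ratios were -0.22 and -0.36 with the Nur77-/- pool in Cy5 and -0.86 and -0.25 with it in Cy3, fitted at -0.42 ± 0.31 (SE, n = 4), 1.34-fold lower in Nur77-/- than in wild-type tissue and the lowest of the 8 members there. In heart they were -0.32 and -0.14 in Cy5 and -0.24 and -0.18 in Cy3, fitted at -0.22 ± 0.31, and in testis -0.04 and -0.03 in Cy5 and -0.36 and -0.23 in Cy3, fitted at -0.16 ± 0.31. Skeletal muscle (-0.46 and -0.22 in Cy5, 0.41 and 0.37 in Cy3) and lung (0.66 and -1.01 in Cy5, 1.37 and -0.64 in Cy3) held both signs, fitted at 0.03 ± 0.31 and 0.09 ± 0.31. Spleen was fitted at -0.21 ± 0.31, with array values from -0.77 to 0.21.

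The 3 Lpin1 probes, which the platform annotation assigns to the same gene, did not give the same picture. Probe 2843 had a value on all 24 arrays and was below 0 on 23 of them, the exception being spleen replicate 2 at 0.17. Its organ means were -0.56 ± 0.22 in skeletal muscle, -0.54 ± 0.16 in lung, -0.41 ± 0.13 in brown adipose tissue, -0.24 ± 0.14 in testis, -0.20 ± 0.11 in heart and -0.12 ± 0.20 in spleen (SD, n = 4 arrays each). The first 3 of these differed by less than their SDs added together, and so did the last 3. With each array's median subtracted, the probe was below 0 on 22 of 24 arrays, with means from -0.53 in lung to -0.07 in spleen, and in skeletal muscle the SD widened to 0.83 around a mean of -0.42.

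Probe 2843 was singled out after its values were seen, and its share of all probes is given as a description. Of 3083 probes with a value on all 24 arrays, 3 were below 0 on at least 23 (0.097%), those of H2aj, Lpin1 and Zfp706, and 7 were above 0 on at least 23. With array medians subtracted, 4 probes were below 0 on at least 22 arrays (0.13%), those of Atf3, Lpin1, Rps26 and Slc38a2. The other Lpin1 probes had fewer values and wider spreads. In skeletal muscle probe 9367 averaged -1.45 ± 2.16 and probe 13196 averaged 2.09 ± 1.69 (SD, n = 4 each), on either side of probe 2843. In lung probe 9367 averaged 3.80 ± 1.92 (n = 2) and probe 13196 averaged -0.67 ± 0.80 (n = 4). In heart probe 9367 averaged -0.50 ± 0.42 (n = 3), while probe 13196 averaged -0.03 ± 0.14 (n = 4) with values from -0.24 to 0.09. The heart sign of the averaged gene was thus not shared by every probe on every array. The means of the 3 probes lay close together in brown adipose tissue, at -0.41 ± 0.13 (probe 2843, n = 4), -0.46 ± 0.18 (probe 9367, n = 2) and -0.35 ± 0.52 (probe 13196, n = 4). Replicate 3 at -1.14 carried the mean of probe 13196, whose replicates 1, 2 and 4 were at -0.16, -0.07 and -0.04.

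**Figure D2:**
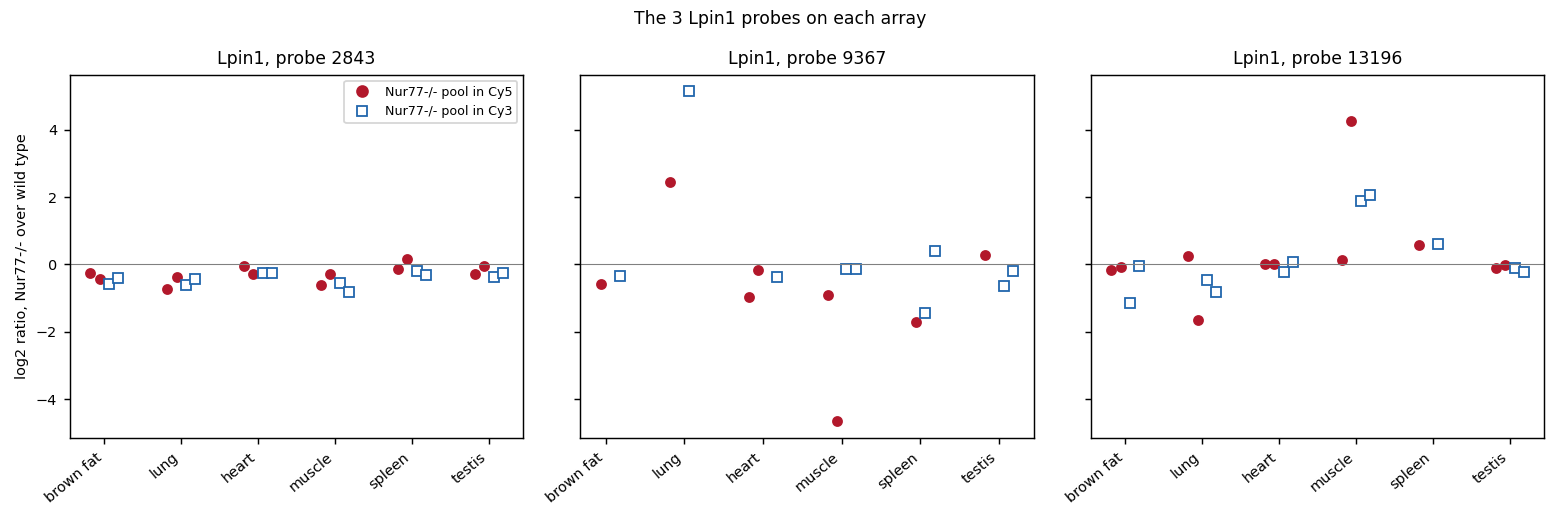
Log2 ratio of Nur77-/- over wild type (vertical axis) of the 3 Lpin1 probes in 6 organs (horizontal axis), 1 panel per probe and 1 point per array. Filled red circles have the Nur77-/- pool in Cy5, open blue squares in Cy3. Probe 2843 lies in a narrow band below 0 on 23 of 24 arrays, while probes 9367 and 13196 reach from -4.65 to 5.15 and from -1.64 to 4.27.

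Set beside all rows tested, the members' median ratio was 0.09 in lung (all rows -0.01), 0.09 in heart (-0.02), 0.42 in skeletal muscle (-0.16), 0.18 in spleen (-0.07) and 0.40 in testis (0.02). The members ran from -0.72 to 2.29 in lung, from -0.26 to 1.27 in heart, from -0.67 to 1.84 in skeletal muscle, from -0.29 to 1.56 in spleen and from -0.16 to 0.73 in testis. In lung 0 of 7 members tested were called, and 0.0809% of all rows (10 of 12365 rows, 1 higher and 9 lower, with 820 at an unadjusted p under 0.05). In heart 0 of 8 were called, and 0% of all rows (13844 rows, 284 at an unadjusted p under 0.05, 19 called with array weights). Without heart replicate 2, whose wild-type channel is labelled skeletal muscle, the heart ratios were 0.48 for Ucp1, -0.43 for Fabp4, 0.12 for Cidea, 0.15 for Adipoq, 0.10 for Lipe and -0.27 for Lpin1, 0 were called, Plin1 was unaffected because it has no value on that array, and Retn could not be tested. In testis 0 of 7 were called, and 0% of all rows (13564 rows, 492 at an unadjusted p under 0.05, 6 called with array weights). The medians of the member set followed the dye in lung, where they were -1.17 and -0.42 on the arrays with the Nur77-/- pool in Cy5 and 1.37 and 0.66 on those with it in Cy3.

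**Figure D3:**
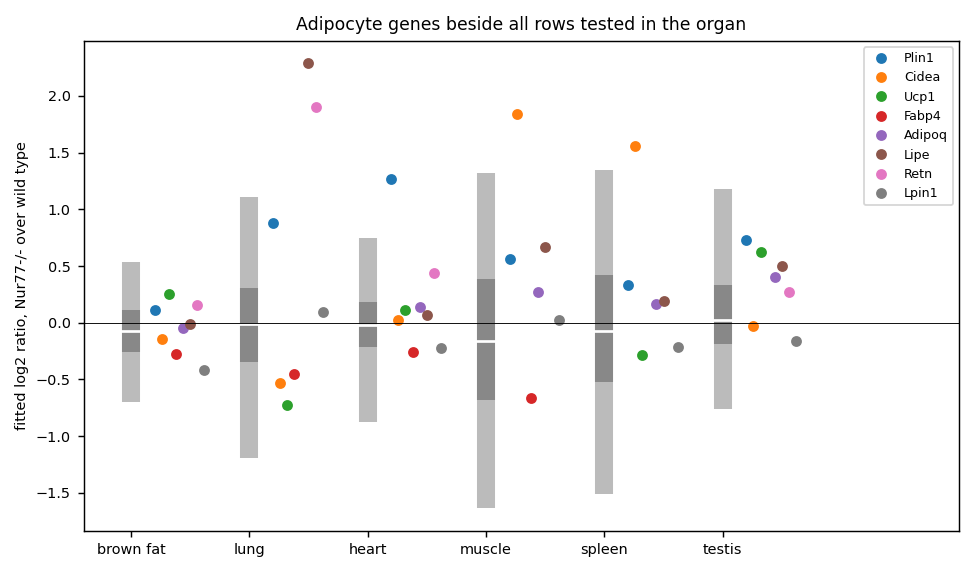
Fitted log2 ratio of Nur77-/- over wild type (vertical axis) of each adipocyte gene tested (coloured points) beside all rows tested in the organ, whose middle 50% are the dark bars, whose middle 90% are the light bars and whose median is the white line. In brown fat all 8 genes lie inside the light bar, from -0.42 to 0.25, while Lipe and Retn in lung, Plin1 in heart and Cidea in skeletal muscle and spleen lie above it.

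Agreement in sign between the dye orientations was near that of rows in general. Over the 44 pairs of member and organ with values in both orientations, the mean with the Nur77-/- pool in Cy5 and the mean with it in Cy3 had the same sign in 23 (52.3%), against 47.5% of 86665 such pairs over all rows. For brown adipose tissue it was 3 of 8 members, against 45.2% of rows. By gene, Ucp1 kept its sign in 4 of 5 organs, Fabp4 in 3 of 4, Lpin1 in 4 of 6, Retn in 3 of 5, Cidea and Lipe in 3 of 6 each, Plin1 in 2 of 6 and Adipoq in 1 of 6. The dye terms of the fit were -0.91 ± 0.36 for Fabp4 (17.1% of rows had a lower one), -0.65 ± 0.30 for Adipoq (25.3%), -0.20 ± 0.57 for Lipe (48.4%) and -0.15 ± 0.25 for Lpin1 (51.5%). They were 0.06 ± 0.30 for Ucp1 (64.7%), 0.44 ± 0.33 for Cidea (84.8%) and 0.83 ± 0.84 for Retn (93.8%). Of the 8 genes, Plin1 lay farthest out among all rows.

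**Figure D4:**
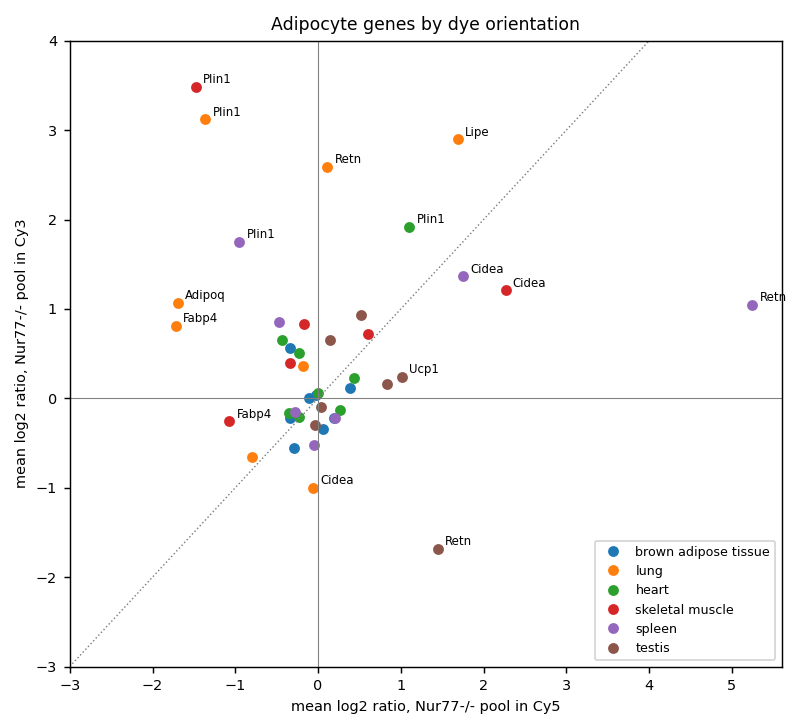
Mean log2 ratio of Nur77-/- over wild type of each adipocyte gene and organ on arrays with the Nur77-/- pool in Cy5 (horizontal axis) and in Cy3 (vertical axis). The dotted line marks equal values, colours mark organs, and points past 1 in size on either axis are named. Plin1 in lung, skeletal muscle and spleen lies in the upper left quadrant, where the sign turns with the dye, and Cidea in skeletal muscle and spleen in the upper right.

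Over arrays, with the array median subtracted, the members were compared with each other by Pearson's r, as a description, since these arrays share pools, organs and dye orientation. Fabp4 and Adipoq had r = 0.56 (n = 16 arrays), Plin1 and Fabp4 0.52 (n = 17), Plin1 and Adipoq 0.45 (n = 18) and Lipe and Lpin1 0.53 (n = 24). Once the mean of each dye orientation was removed, these were 0.40 for Fabp4 and Adipoq, 0.07 for Plin1 and Fabp4, 0.20 for Plin1 and Adipoq and 0.53 for Lipe and Lpin1. Lipe and Lpin1 both had their highest value on lung replicate 3, at 5.42 and 1.37. The Lpin1 value there came from probe 9367 at 5.15, while probes 13196 and 2843 read -0.46 and -0.60. The r of this pair without that array was not computed. Plin1 and Cidea, both of the droplet surface, had r = -0.43 (n = 21), and -0.20 without the dye means. The highest r without the dye means was that of Plin1 and Retn, at 0.60 (n = 13), against 0.27 with them. Lipe and Retn had 0.40 (n = 15), and 0.44 without the dye means. Among the 6554 genes with values on at least 20 arrays, the patterns most like the members' were those of Adprhl2 (0.93, n = 18) and 2810004N23Rik (0.81, n = 20) for Plin1, and of R3hdm4 (0.88, n = 23) and Dnajc14 (0.87, n = 21) for Cidea. For Ucp1 they were H2al2a (0.80, n = 18) and Pxmp4 (0.79, n = 21), and for Adipoq Xylt1 (0.85, n = 17) and Pard6a (0.79, n = 18). For Lipe they were Uap1l1 (0.83, n = 24) and Sgtb (0.77, n = 21), and for Lpin1 Psmg2 (0.78, n = 23) and Dlat (0.73, n = 24). No other member was among these nearest genes, but Fabp4 (19 arrays) and Retn (15 arrays) had too few values to enter the search. The dye means were not removed for this search.

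The closest relatives of the members also had fitted ratios near 0 in brown adipose tissue, and none was called. Of the droplet coat, Plin2 was fitted at -0.24 ± 0.45 (SE, n = 4), Plin3 at -0.11 ± 0.59 and Plin4 at 0.04 ± 0.75, and Cidec, which drives droplet fusion in white fat, at -0.13 ± 0.89. The fatty acid carriers Fabp3 and Fabp5 stood at -0.21 ± 0.37 and -0.14 ± 0.53, and the lipins Lpin2 and Lpin3 at 0.27 ± 0.37 and -0.02 ± 0.28. Retnla, a resistin-like factor of activated macrophages, was fitted at 0.49 ± 0.69, carried by replicate 1 at 3.09 while replicates 2, 3 and 4 were at 0.30, -0.56 and -0.87.

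Of 104 further adipocyte genes on the array, grouped in 5 lists, 102 were tested in brown adipose tissue and 0 were called (limma, adjusted over all rows of the organ). The list medians there were -0.20 for 21 genes of the droplet coat and lipolysis (3 above 0), -0.18 for 17 genes of brown fat and thermogenesis (6 above 0), -0.13 for 18 genes of white adipocytes and adipokines (7 above 0), -0.12 for 18 adipocyte transcription factors (7 above 0) and -0.06 for 28 genes of fatty acid uptake and triglyceride assembly (11 above 0). The median of all rows was -0.07, and 38.9% of all rows were above 0. The 5 lists together had medians of -0.13 in brown adipose tissue, -0.09 in lung, -0.06 in heart, -0.09 in skeletal muscle, -0.11 in spleen and 0.00 in testis. In heart 0 of 91 and in testis 0 of 82 were called.

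In lung, spleen and skeletal muscle 5 calls were made among these 104 genes. Thrsp, a regulator of lipid synthesis also known as Spot 14, fell by 1.28 on the log2 scale in lung, with array values of -0.98 and -1.30 in Cy5 and -1.32 and -1.51 in Cy3 (adjusted p = 0.0271 by limma, and 0.0115 with array weights), 1 of 86 genes tested (1.16%, against 0.0809% of all rows). In spleen it fell by 1.52 on the log2 scale, with 3 arrays at -1.67 in Cy5 and -2.07 and -0.86 in Cy3 (adjusted p = 0.00468, and 0.037 with array weights). Scd2, a stearoyl-CoA desaturase, fell by 1.99 on the log2 scale in spleen, with -2.12 and -3.24 in Cy5 and -1.31 and -1.29 in Cy3 (adjusted p = 0.00468, and 0.454 with array weights), which makes 2 of 75 genes tested there (2.67%, against 1.53% of all rows). In skeletal muscle 2 of 83 rose (2.41%, against 5.59% of all rows). Vegfa, an angiogenic factor, was fitted at 2.34 ± 0.55 (adjusted p = 0.0152, and 0.0621 with array weights), with 1 array of 4 below 0. Stat5b, a transcription factor of growth hormone and cytokine signals, was fitted at 2.10 ± 0.50 (adjusted p = 0.0175, and 0.23 with array weights), above 0 on 4 of 4 arrays. The call of Thrsp in lung was lost without each of the 4 replicates (adjusted p from 0.129 to 0.313). That of Thrsp in spleen was lost without replicate 3 (0.143), and it was not tested without replicate 1. That of Scd2 was lost without replicate 2 (0.0629) or 3 (0.0505). The call of Stat5b was lost without replicate 1, 2 or 3 (0.0711, 0.139 and 0.0894), and that of Vegfa without replicate 1, 3 or 4 (0.131, 0.165 and 0.119). The skeletal muscle markers that fell in lung and the exocrine pancreas markers that fell in spleen, given above, moved in the same organs as Thrsp and Scd2. In spleen 1 of 14 skeletal muscle markers was called, against 1.53% of all rows, and 8 were above 0 (list median 0.08). It was Tnni2, a troponin of fast muscle, which fell by 1.78 on the log2 scale on 3 arrays. Its adjusted p was 0.0255 by limma, and 0.176 with array weights. The part of these markers in the calls of adipocyte genes was not tested.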

How the data were processed

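The measurements were 2-colour array ratios of 24 hybridisations. Each probe of each array has 1 value, a log2 ratio deposited by the authors, and its background correction, normalisation, software and log base are not stated in the sources used here. Dyes were coupled indirectly to cDNA from 20 µg of RNA, per the labels' protocols. The log base was read as 2 from the values: 4874 of 392774 (1.24%) lie in a separate mode of size 15.7 or more, with none between 9.94 and it, and these were treated as missing. The direction was taken as Nur77-/- over wild type on every array. All columns were used.

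Of 20205 probes, 13891 had 1 symbol in the platform annotation, 5 several and 6309 none, and 13855 were found in RefSeq by Entrez number, with 0 symbols changed. Probes with 1 symbol were averaged per array, giving 16148 rows. Tests in an organ covered rows with at most 1 of 4 arrays missing and both dye orientations measured. limma 3.58.1 (R 4.3.3) fitted 1 model with 6 organ coefficients and 1 dye term, which shares 1 spread over the organs, with Benjamini-Hochberg adjustment within an organ and a threshold of 0.05. The fit was tested on simulated data. Standard errors are the model's. The shared spread makes them smaller than scattered arrays of an organ alone would give, and larger where the arrays lie close. The median array SD of rows with 4 values was 1.07 in skeletal muscle and 0.885 in spleen, against 0.45 in brown adipose tissue. Calls are therefore easier to reach in skeletal muscle and spleen than in brown adipose tissue. Signals over background were not used here, so the number of arrays limits the precision.

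The members, lists and tests were chosen with earlier results of these data known. Named genes are the members, list genes past the test, relatives of the members in brown adipose tissue, the 2 genes most like each member with 20 or more values, and Nr4a1. Alternatives changed centring, scaling, dye term, array weights, missing values, probe averaging, organs fitted alone, arrays left out and a replicate block. A pairing of samples by replicate number was not seen, though these correlations cannot exclude it. Same-numbered arrays of different organs had a median r of 0.04 (60 pairs, at most 0.27). Other numbers in the same dye orientation had 0.04 (60 pairs, at most 0.22). Python 3.11.15 with pandas 2.3.3 and matplotlib 3.10.9 made the tables and plots.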

Additional observations from a re-analysis of the deposited data

Results flagged for a closer look

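Ucp1 was above 0 on all 4 brown adipose tissue arrays and below 0 on all 4 lung arrays, and its fitted log2 ratio was 0.98 higher in brown adipose tissue than in lung. This difference between organs was not tested. The Stat5b ratio of skeletal muscle replicate 2, 2.94, stood far from those of the other 3 arrays of that organ. It was 1 of 36 groups of 4 arrays checked, and chance marks about 1 in 20. A Fabp4 value of 17.1 on testis replicate 1 and a Lipe value of -16.8 (probe 6343) on skeletal muscle replicate 3 belong to the separate mode of very large ratios and entered no comparison.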

How the results depend on the processing

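Of the 8 members' calls, that of Cidea was lost in skeletal muscle (1 to 0 called) with arrays centred and scaled, a dye term per organ, only complete rows, the organ fitted alone, without skeletal muscle replicates 2 and 4 (chosen after seeing the data), and without each replicate (0 to 0). In spleen it was lost (1 to 0) with arrays centred, centred and scaled, values over 12 kept, no dye term, a dye term per organ, array weights, the organ fitted alone, without heart replicate 2 and under the replicate block, and leaving out a replicate gave 0 to 1. The members' median in spleen ranged from -0.0079 to 0.7005 with a replicate left out. Other adipocyte genes called in lung, 1 in the main analysis, were 0 with arrays centred, a dye term per organ, the organ fitted alone, without heart replicate 2, under the replicate block and without each replicate. In skeletal muscle 2 called became 0 with array weights, arrays centred and scaled and the organ fitted alone, 9 with the probe of most values, 1 without skeletal muscle replicates 2 and 4, and 0 to 2 with a replicate left out. In spleen 2 called became 0 with arrays centred and scaled and the organ fitted alone, 1 with array weights, only complete rows or values over 12 kept, 4 with the probe of most values, and 0 to 2 with a replicate left out. For these changes the cause was not tested, except that only complete rows removes genes with a missing array. Over the alternatives, rows called ranged from 0 to 6 in brown adipose tissue, 0 to 25 in lung, 0 to 19 in heart, 0 to 909 in skeletal muscle, 0 to 303 in spleen and 0 to 7 in testis, the 0 in muscle and spleen coming from the organ fitted alone. Apart from Cidea no member was called under any alternative run. No called value of a member or of a gene of the adipocyte and marker lists changed sign. The signs of the other called rows were not compared. The replicate block, whose numbers were not seen to pair these samples, left 572 rows called in skeletal muscle (669 without it) and 120 in spleen (172).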
